A study of Mus musculus with 22 samples.

Results

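Mice that received only the gel vehicle were compared by when they received it: 6 Late Vehicle mice against 6 Early Vehicle mice, 12 of the 22 mice of the series. The members were chosen by their labels alone (treatment Vehicle, batch Late or Early), and 16169 of the 17306 genes in the table were tested, those with a level of at least -1 log2 CPM (counts scaled to the size of the library) in 5 or more of the 12 libraries. The study asked how SAFit2, an inhibitor of the stress-related protein FKBP5, acts on pain in a model of knee osteoarthritis and whether the time of dosing matters. All groups were male wildtype C57BL6J mice aged 12 to 14 weeks, with 1 mg sodium iodoacetate (MIA) injected into a knee joint at day 0 and the collection of tissue taken as day 30. The Early Vehicle mice had vesicular phospholipid gel without drug on day -3 and day 4 (day 3 and day 4 in the sample labels), and the Late Vehicle mice had the same gel on day 20 and day 27. The SAFit2 mice (5 Early and 5 Late) had the drug in that gel on the same days, at 100 mg/kg. The titles of the 5 Early drug libraries read SAFit1, and their treatment label SAFit2 was followed. RNA came from the lumbar spinal cord (L4 to L6) on the side of the injected knee. Every Early library carries the label batch Early and every Late library the label batch Late, so gel timing and batch cannot be told apart in any value given here.

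The spinal cord holds neurons, astrocytes that clear glutamate and potassium and supply neurons with fuel, oligodendrocytes that make myelin, and microglia. Long noncoding RNAs (lncRNAs) such as Meg3, Neat1, Miat and Malat1 stay largely in the nucleus, as do many transcripts that keep an intron, whereas messenger RNAs of enzymes, ribosomal proteins and tubulins are mostly cytoplasmic. An mRNA library samples both pools, so the measured share of each depends on transcription, on decay and on how the RNA was handled.

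The 12 libraries held between 13862129 and 24433349 reads on genes, and counting error is therefore small for all but the weakest genes. The spinal cord label was checked against markers. All 15 oligodendrocyte markers, all 14 astrocyte markers, all 16 excitatory and all 13 inhibitory dorsal horn neuron markers passed the filter, and so did 32 of 32 Hox genes, which carry the position along the body axis. Mbp, the main protein of myelin, averaged 13.12 log2 CPM in Early and 13.21 in Late Vehicle mice, and Hoxc10, a Hox gene of the lumbar cord, averaged 6.47 and 6.76. Of 11 markers of sensory ganglion neurons, 6 were in the table.

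Libraries that stand apart were present in both groups. Bc1, a small neuronal noncoding RNA, took between 0.942% and 1.86% of reads in 4 of the Early Vehicle libraries, but 4.28% in replicate 5 and 11.9% in replicate 4. Among Late Vehicle libraries it took between 1.32% and 3.43% in 5 and 7.55% in replicate 6. Early Vehicle replicate 5 also had 18.3% of its reads on mitochondrial genes, against a group median of 8.80%. Late Vehicle replicates 2 and 6 had a negative slope of level on GC content (-0.17 and -0.33 log2 units per 10% GC), while the other 4 Late Vehicle libraries lay between 0.27 and 0.51. None of the 6 library measures tested differed between the groups at an adjusted p under 0.05. The exact two-sided permutation p over all divisions of the 12 mice was between 0.169 (scaling factor) and 0.740 (Bc1 share) for 6 measures, and 0.740 for each after Benjamini-Hochberg adjustment. The slope of level on transcript length was not tested. It was negative in all 6 Late Vehicle libraries (-0.06 to -0.01 log2 units per doubling) and positive in 4 of 6 Early ones (-0.09 to 0.12 over all 6). On the principal components of all genes tested, the first (28% of the variance) placed 5 of 6 Late Vehicle libraries above every Early one, with Late Vehicle replicate 6 at -13.5, inside the Early range of -64.8 to -3.75 (exact permutation p = 0.0108). Early Vehicle replicates 5 and 4 were the lowest, at -64.8 and -56.2. On the 500 genes of highest variance all 6 Late libraries lay above all 6 Early ones (exact permutation p = 0.00216, the smallest that 6 against 6 can give).

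**Figure D1:**
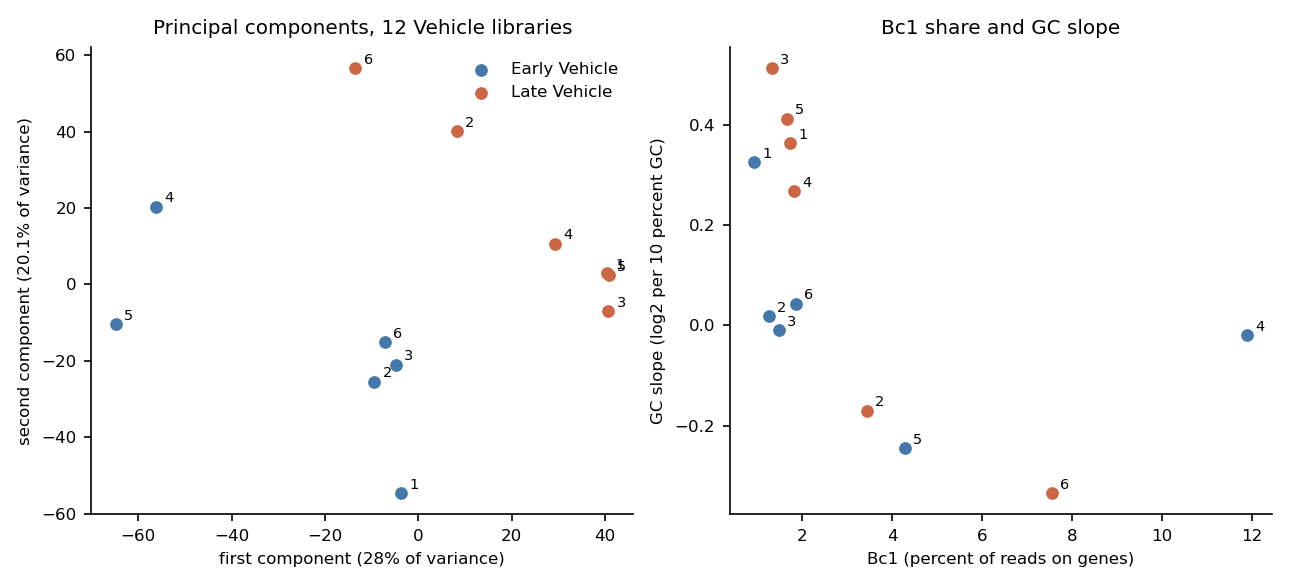
Each point is a Vehicle library, numbered by replicate. The left plot shows scores on the first and second principal component of log2 CPM over the genes tested, and the right plot the percent of reads on Bc1 against the GC slope (log2 per 10% GC). Early Vehicle 4 and 5 and Late Vehicle 6 have the highest Bc1 shares, and Late Vehicle 6 lies among the Early libraries on the first component.

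Between Late and Early Vehicle mice, 1527 genes (9.44% of those tested) were called by limma, with an adjusted p under 0.05 over all genes tested and a fold of at least 1.2. Of these, 559 (3.46%) were higher and 968 (5.99%) lower in the Late mice, and 3992 genes had an unadjusted p under 0.05. With Early Vehicle 4 and 5 and Late Vehicle 6 left out, a choice made after seeing the data, 1655 genes were called (672 higher and 983 lower), 1159 of them among the 1527. The count was 937 without Late Vehicle 1, 2483 without Late Vehicle 6 and 5058 with library quality weights. The spread behind each p was estimated over all 22 libraries, those of SAFit2 mice included. The 12 Vehicle libraries alone gave 1210 genes, 361 higher and 849 lower. The levels of 812 genes (5.02%) did not overlap between the groups, with the Late mice higher for 222 and lower for 590. The median log2 difference, Late minus Early, was 0.01 over all genes tested.

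The size of the difference was unequal in the 2 directions. Of the genes called higher, 105 were at least 1.5-fold, 11 at least 2-fold and 1 at least 4-fold different. Of those called lower, 738 were at least 1.5-fold, 395 at least 2-fold and 120 at least 4-fold different. The median fold was 1.36 for genes called higher and 1.82 for genes called lower. The split depended on the scaling. Library sizes computed without Bc1 and mitochondrial genes moved the median of all genes to -0.10 and gave 145 higher and 1608 lower, centring on the median gave 1073 and 831, and taking out each library's trend over GC content and length gave 1879 and 1044. No called gene that came under the naming rule turned its direction under any of these.

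Genes called lower differed in kind from genes called higher. None of the 653 lncRNAs tested was called higher and 70 were called lower, with a median of -0.25. LncRNAs were 4.04% of the genes tested, 7.23% of those called lower and 15.9% of those lower by at least 2-fold. Over all genes tested 3.46% were called higher and 5.99% lower. Among 14 miRNA genes 0 were called higher and 4 lower. Of 218 pseudogenes 8 were called higher, close to the share of all genes, and 1 lower. The 154 transcribed pseudogenes gave 2 higher and 17 lower. Genes called lower had a median of 13 exons in the annotated transcript with the most exons, against 9 in genes called higher and 8 in all genes tested. A transcript annotated as retaining an intron existed for 67.0% of the genes called lower, 57.9% of those called higher and 52.5% of all. Among genes lower by at least 2-fold that share was 59.9%, with a median of 11 exons and 48.9% GC. All genes called lower had a median GC content of 46.8%, against 52.3% in genes called higher and 49.8% in all genes tested. The median transcript length of all genes called lower was 4240 bases, against 2998 and 3328. Across 15676 genes the log2 difference had a Pearson r of 0.198 (Spearman rho 0.268) with GC content and -0.066 (rho -0.088) with log2 length, given as a description since genes are not independent replicates. Genes called higher were abundant, with a median level of 6.77 log2 CPM, against 3.59 in genes called lower and 4.10 in all. In genes lower by at least 2-fold it was 1.34. The part of abundance in the unequal fold sizes was not tested.

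**Figure D2:**
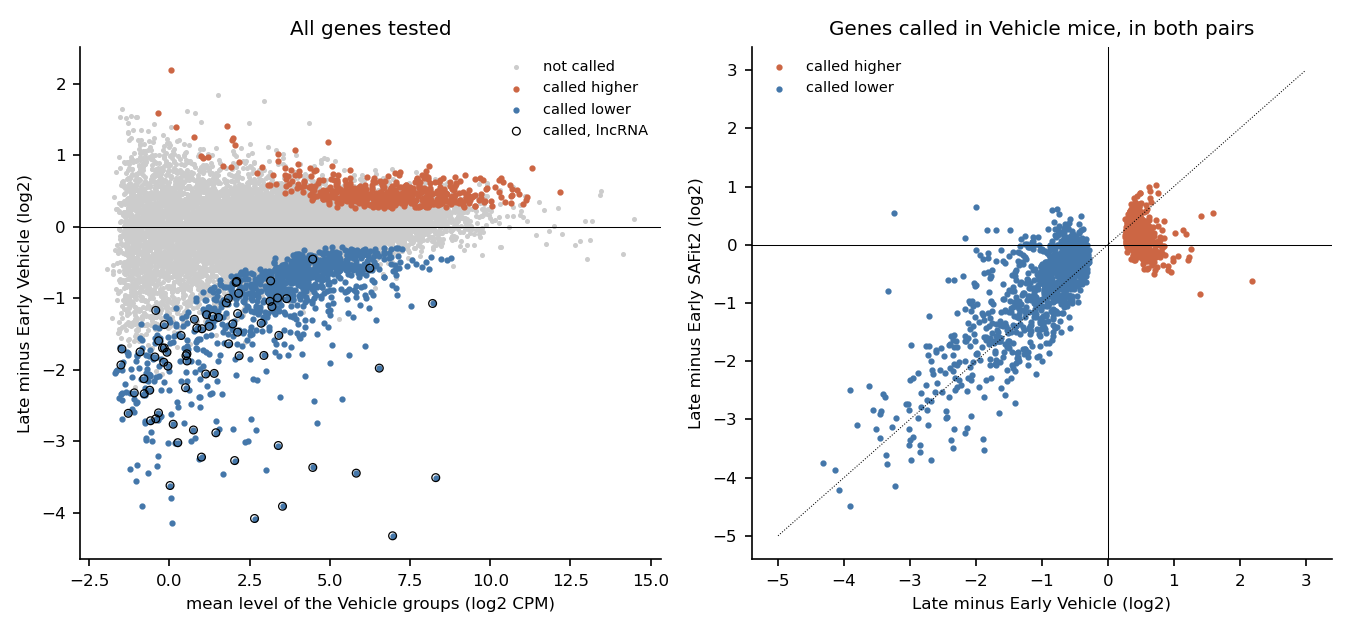
The left plot shows every gene tested, with its mean level in the Vehicle groups (log2 CPM) and its Late minus Early Vehicle difference (log2), and circles around the 70 called lncRNAs, all of which were lower. The right plot shows the 1527 called genes in the Vehicle pair (horizontal) and in the SAFit2 pair (vertical), both in log2, with a dotted line at equal values, and 1294 of them have the same direction in both.

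The 6 genes of lowest p, Snhg11, Firre, Miat, Neat1, Mir124a-1hg and Meg3, were noncoding RNAs, all lower in the Late mice. Snhg11, a neuronal host transcript of a small nucleolar RNA on chromosome 2, had a median of 8.93 log2 CPM and a highest value of 10.14 in Early Vehicle mice, and a lowest, median and highest value of 4.60, 4.76 and 5.16 in Late Vehicle mice. All 6 Late mice lay below all 6 Early mice, by 20.0-fold on average (log2 -4.32, SE 0.27, limma adjusted p = 3.81e-11). Firre, an X-linked RNA that anchors chromatin in the nucleus, stood at 5.11, 5.26 and 6.41 in Early mice and at 1.06, 1.65 and 1.78 in Late mice. It was 15.0-fold lower (log2 -3.91, SE 0.24, adjusted p = 3.81e-11). Neat1, the scaffold of nuclear paraspeckles, stood at 7.02, 7.39 and 8.30 in Early mice and at 3.46, 4.12 and 4.65 in Late mice, again without overlap (log2 -3.45, SE 0.24, adjusted p = 3.76e-10).

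Miat, which marks a further nuclear domain of neurons, fell from a median of 5.97 to 2.86 (log2 -3.37, adjusted p = 3.06e-10). Mir124a-1hg, the host of the neuronal microRNA miR-124, fell from 4.50 to 0.79 (log2 -4.08, adjusted p = 9.48e-10). The unnamed lncRNA A330023F24Rik fell from 4.70 to 1.87 (log2 -3.06, adjusted p = 9.02e-09). None of these 3 overlapped between the groups. For Snhg11, Firre, Neat1, Miat, Mir124a-1hg and A330023F24Rik alike the exact permutation p was 0.00216, the smallest that 6 against 6 can give. These genes were named for groups without overlap, and every such gene has this p, so it is no further support. Each of them was called under all 40 other settings and left-out libraries. The differences were also as large without Early Vehicle 4 and 5 and Late Vehicle 6, at -4.12 for Snhg11, -3.95 for Firre and -3.59 for Neat1. In a list of 13 abundant noncoding RNAs, 8 were tested and 6 were called lower, with 0 higher and a median of -2.67, beside 0.01 for all genes. The others were Meg3, Malat1 (-1.98) and Snhg14 (-0.99), and Bc1 was not called (0.10, adjusted p = 0.938).

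Imprinted noncoding RNAs, which are read from 1 parental chromosome, were grouped after the values were seen and so carry no test as a list. Of 9 tested, 6 were called lower (66.7%, beside 5.99% of all genes) and 0 higher, with a median of -1.07. After centring on the median, after removal of the GC and length trend and without Late Vehicle 6, 1 of the imprinted RNAs was called higher. Their summed level was 1477 CPM at the lowest, 1664 at the median and 2732 at the highest in Early mice, and 656, 691 and 748 in Late mice, without overlap. Meg3, the maternally expressed lncRNA on chromosome 12 and the most abundant member, stood at 9.49, 9.80 and 10.90 in Early mice and at 6.14, 6.54 and 7.15 in Late mice (log2 -3.51, SE 0.27, adjusted p = 2.16e-09). Rian (-1.07) and Mirg (-2.88), which lie downstream of Meg3 in the same maternal cluster and host many small RNAs, were lower without overlap too. Ipw (-3.22) and Snhg14 (-0.99) from the Prader-Willi region and Kcnq1ot1 (-1.80) were also called lower. The strand setting of the read counting is not stated, so reads of overlapping genes may be shared for Snhg14, Ipw and Kcnq1ot1. Host genes of small RNAs, also grouped after the values were seen, gave 10 of 24 called lower (41.7%) and 0 higher (median -0.49), among them Snhg20 (-2.05), Snhg7 (-1.78) and Snhg17 (-1.25).

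Promoters of genes that moved together are shown for 3 called lower that hold the cyclic AMP response element TGACGTCA (the same letters on both strands), marked in capitals, since Meg3 heads the imprinted RNAs and Wsb1 and Clk4 belong to the intron-retaining transcripts described next. The RefSeq promoters (250 bases before to 50 after the start, GRCm38.p6) held this motif in 1.79% of 32851, in 2.05% of the 537 of genes called higher and in 3.01% of the 931 of genes called lower. Another RefSeq promoter of Meg3 and another of Wsb1 held no such motif. It was also absent from those of Snhg11, Firre, Miat, Ddx17, A330023F24Rik, Trank1, Rian, Mirg and Malat1. A match is a description of the letters only.
Meg3, chr12:109540746-109541045, plus strand: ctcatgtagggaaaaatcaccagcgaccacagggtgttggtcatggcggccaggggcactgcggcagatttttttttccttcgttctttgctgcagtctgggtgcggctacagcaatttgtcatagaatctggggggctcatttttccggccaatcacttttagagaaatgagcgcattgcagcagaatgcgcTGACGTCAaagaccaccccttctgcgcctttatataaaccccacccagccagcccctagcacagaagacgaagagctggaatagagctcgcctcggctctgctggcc
Wsb1, chr11:79254646-79254945, minus strand: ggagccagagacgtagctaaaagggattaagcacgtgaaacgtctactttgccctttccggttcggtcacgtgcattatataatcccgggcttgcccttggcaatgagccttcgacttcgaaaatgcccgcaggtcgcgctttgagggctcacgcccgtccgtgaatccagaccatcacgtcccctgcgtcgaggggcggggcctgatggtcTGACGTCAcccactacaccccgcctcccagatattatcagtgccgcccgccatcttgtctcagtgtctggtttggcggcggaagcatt
Clk4, chr11:51262864-51263163, plus strand: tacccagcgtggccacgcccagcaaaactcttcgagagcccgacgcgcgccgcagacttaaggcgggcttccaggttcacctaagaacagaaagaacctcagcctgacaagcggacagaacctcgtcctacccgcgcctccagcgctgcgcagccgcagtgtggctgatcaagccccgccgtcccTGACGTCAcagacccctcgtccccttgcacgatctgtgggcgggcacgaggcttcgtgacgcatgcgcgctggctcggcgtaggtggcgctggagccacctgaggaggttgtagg

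Lists of splicing genes and of transcripts known to keep introns in the nucleus also held genes called lower. A list of 34 spliceosome and RNA-binding genes had 21 called lower (61.8%, beside 5.99% of all genes) and 0 higher, with a median of -0.53. It includes 4 noncoding RNAs, and among its 30 protein-coding members 17 were called lower, with a median of -0.48. Clk1, a kinase of splicing factors whose own transcript is largely held unspliced, stood at 5.39, 5.75 and 7.10 in Early mice and at 3.71, 4.00 and 4.72 in Late mice, without overlap (log2 -1.91, SE 0.23, adjusted p = 6.27e-06). Its relative Clk4 (-1.31) and the splicing regulators Tra2a (-0.98) and Rbm5 (-0.70) were lower too. A list of 26 transcripts with detained introns, drawn up after the values were seen, had 23 called lower (88.5%, beside 5.99% of all genes) and 0 higher. It had a median of -1.15 and 20 without overlap, beside 5.02% of all genes without overlap. In the summed level of this list, Early mice lay at 2542, 2834 and 3869 CPM and Late mice at 1574, 1686 and 2077. Ddx5, its most abundant member, was not called (-0.27, adjusted p = 0.136), while its close relative Ddx17 fell from a median of 8.05 to 6.92 (log2 -1.11, SE 0.09, adjusted p = 8.99e-09). Wsb1, which targets proteins for degradation, fell from 5.88 to 3.13 (log2 -2.75, adjusted p = 2.47e-08). The sugar transferase gene Ogt (-1.30), the nonsense-mediated decay kinase gene Smg1 (-1.26) and the RNA-binding genes Tia1 (-2.09) and Leng8 (-2.44) belong to the same group. The splicing and detained-intron lists share members. Clk1, Clk4, Tra2a, Rbm5, Luc7l, Rbm39, Srsf5 and Luc7l3 were called lower in both, so the lists are not separate results. The counts cover whole genes, so spliced and intron-holding forms were not told apart.

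**Figure D3:**
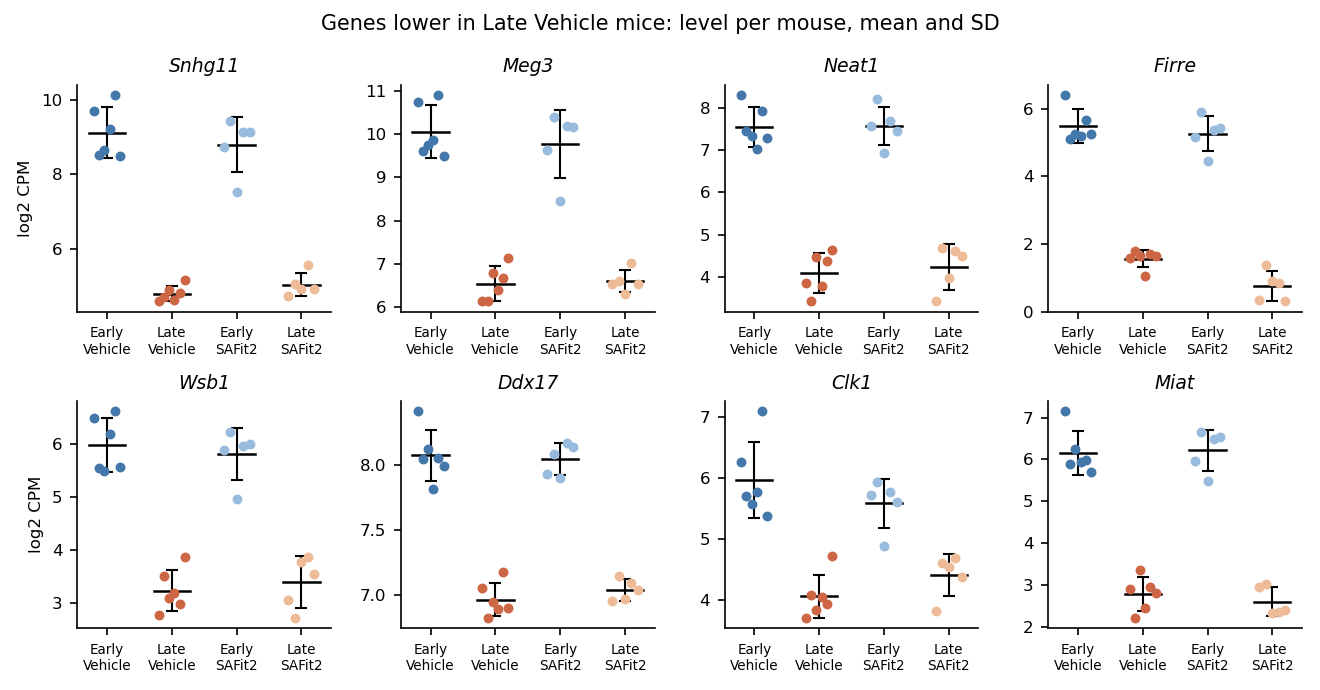
Each point is a mouse, in log2 CPM, with the group mean and SD as bars, for Snhg11, Meg3, Neat1, Firre, Wsb1, Ddx17, Clk1 and Miat in the 4 groups. Within Vehicle mice all 6 Late values lie below all 6 Early values in each of the 8 genes.

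Trank1, a gene of poorly known function, fell from a median of 6.40 to 4.21 (log2 -2.41, adjusted p = 4.1e-08), and Adamts10, a matrix protease, from 3.16 to 0.36 (log2 -3.46, adjusted p = 8.74e-06). Of 381 zinc finger genes of the Zfp series, 38 were called lower (9.97%, beside 5.99% of all genes) and 1 higher (median -0.15). The lowest p among them was of Zfp445, a guardian of imprinting, from a median of 6.75 in Early mice to 5.56 in Late mice without overlap (log2 -1.14, adjusted p = 2.43e-07). Larger differences were those of Zfp692 (-2.13), Zfp280c (-2.02) and Zfp950 (-1.74). The number called lower was 23 without Late Vehicle 1, 62 without Late Vehicle 6 and 70 with library sizes that leave out Bc1 and mitochondrial genes. The balance of calls in this family depended in part on the scaling. Removal of the GC and length trend gave 38 lower and 13 higher with a median of -0.04, and quantile normalization 29 lower and 2 higher with a median of -0.06. In both, more were called lower than higher and the median stayed negative. Of 52 collagens and laminins, 9 were called lower and 0 higher (median -0.56), and 49 of the 52 differences were negative. The number called lower was 6 without Late Vehicle 1, 12 without the 3 libraries of high Bc1 share, 16 after removal of the GC and length trend and 18 with the GC slope as a covariate. Col11a1, a fibrillar collagen, fell from 4.17 to 1.09 (log2 -3.40, SE 0.40, adjusted p = 4.03e-06), and Col27a1 from 3.00 to 0.19 (log2 -2.83). Of 1207 genes with a provisional name (Gm or Rik), 95 were called lower (7.87%, beside 5.99% of all genes) and 9 higher (median -0.11, and 0.04 after quantile normalization). Among Hox genes 2 of 32 were lower, Hoxd4 (-1.64) and Hoxd3 (-0.80), and Hoxc10 was higher (0.29), with a median of 0.05 for the list. The calls of Hoxd3 and Hoxc10 were lost in 9 and 8 of 40 other settings and left-out libraries.

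Among genes called higher in the Late mice, those of lowest p without overlap are given first. Kcnj10, the potassium channel with which astrocytes take up potassium, stood at 9.18, 9.45 and 9.81 in Early mice and at 9.82, 10.14 and 10.33 in Late mice, without overlap by a narrow margin (log2 0.66, SE 0.12, adjusted p = 0.000831). Mlc1, a membrane protein of astrocyte endfeet, stood at 7.11, 7.52 and 7.79 in Early mice and at 7.86, 8.07 and 8.27 in Late mice (log2 0.58, SE 0.10, adjusted p = 0.000629). Serpine2, a secreted protease inhibitor, rose from a median of 7.87 to 8.34 (log2 0.49, SE 0.08, adjusted p = 0.000281), and Gm2a, a lysosomal cofactor of ganglioside breakdown, from 6.77 to 7.29 (log2 0.49, SE 0.08, adjusted p = 0.000161). Gm2a had the lowest p of all genes called higher. The matrix protein gene Spon1 (0.46), the syndecan gene Sdc4 (0.45), the innate immune co-receptor gene Tril (0.56) and Mmd2 (0.42) were also among the 10 with the lowest p, as were Eif3c (0.55), a part of a translation initiation factor, and Atp5a1 (0.54).

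Of the 14 astrocyte markers 7 were called higher and 0 lower, with a median of 0.42, beside 0.01 for all genes and 3.46% of genes called higher. Their summed level was 7127, 7524 and 8714 CPM in Early mice and 9738, 9865 and 10312 CPM in Late mice, without overlap, with the glutamate transporter gene Slc1a2 as the most abundant. Slc1a2 itself rose (log2 0.46, adjusted p = 0.0169), as did Aldoc (0.59), Agt (0.61), Atp1b2 (0.55) and the GABA transporter gene Slc6a11 (0.63). Gfap, the filament gene of reactive astrocytes, was not called (0.10, adjusted p = 0.701), nor was the water channel gene Aqp4 (0.25, adjusted p = 0.342). In bulk tissue, more cells of a type and more RNA per cell cannot be told apart. Without Early Vehicle 4 and 5 and Late Vehicle 6, 6 astrocyte markers were called. The number was 4 with library sizes that leave out Bc1 and mitochondrial genes (median 0.30), and 0 after quantile normalization, where the median was 0.21.

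Microglia markers were called in neither direction (0 of 15, median 0.23), yet their summed level also did not overlap, at 409, 452 and 490 CPM in Early and 523, 547 and 567 CPM in Late mice. After removal of the GC and length trend 5 were called higher, and 2 after centring on the median, with the GC slope as a covariate, without Late Vehicle 6 or without the 3 libraries of high Bc1 share. Oligodendrocyte markers gave 2 of 15 called higher (13.3%, beside 3.46% of all genes), Trf (0.43) and Cnp (0.35), with a median of -0.01. Their sums overlapped, at 18849, 23288 and 36014 CPM in Early and 21227, 23649 and 25313 CPM in Late mice, led by Mbp. The calls of Trf and Cnp were lost in 11 and 15 of 40 other settings and left-out libraries. All 11 tested markers of meningeal and vascular fibroblasts had negative differences (median -0.66) and all 9 of Schwann cells and nerve root too (median -0.53), but 0 of either list were called. Without the 3 libraries of high Bc1 share 3 fibroblast markers were called lower (median -0.87), as were 3 with library sizes that leave out Bc1 and mitochondrial genes. The fibroblast sums were 269, 369 and 655 CPM in Early and 189, 272 and 297 CPM in Late mice, with Dcn the most abundant, and 1 of the 12 markers listed did not pass the filter. The Schwann sums were 1013, 1996 and 3353 CPM and 859, 1491 and 1854 CPM. The part of nerve root and meninges in the lower collagen values was not tested.

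Several lists of energy supply held genes called higher. Of 18 glycolysis genes, 13 were called higher (72.2%, beside 3.46% of all genes) and 0 lower, with a median of 0.39 and 18 of 18 differences positive. Gapdh stood at 7.68, 8.21 and 8.30 in Early mice and at 8.34, 8.88 and 8.98 in Late mice, just without overlap (log2 0.65, SE 0.14, adjusted p = 0.00341). Hk1, which commits glucose to the pathway, rose from a median of 8.07 to 8.70 (log2 0.63, adjusted p = 0.00896), and Pgam1 from 8.81 to 9.19 (log2 0.34, adjusted p = 0.00637). The glucose transporter gene Slc2a1 was called (0.63, adjusted p = 0.0464) but lost that call in 16 of 40 other settings and left-out libraries. The number of glycolysis genes called fell to 4 without Late Vehicle 1, to 3 with library sizes that leave out Bc1 and mitochondrial genes and to 1 after quantile normalization, while the medians stayed positive (0.34, 0.27 and 0.17).

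In the tricarboxylic acid cycle, a list drawn up after the values were seen, 10 of 19 genes were called higher (52.6%, beside 3.46% of all genes) and 0 lower (median 0.30). The number was 6 without Late Vehicle 1, 5 with library sizes that leave out Bc1 and mitochondrial genes and 3 after quantile normalization. Fh1, the fumarase of the cycle, rose from a median of 6.59 to 6.99 without overlap (log2 0.41, adjusted p = 0.00164). Nuclear genes of oxidative phosphorylation gave 8 of 32 higher and 0 lower (median 0.20), led by the ATP synthase gene Atp5a1, from 9.64 to 10.17. The 13 genes read from mitochondrial DNA gave 0 calls in either direction (median -0.19), but 4 were called higher after removal of the GC and length trend (median 0.04), and mitochondrial ribosomal proteins 0 of 77 (6 higher after removal of that trend and 3 without Late Vehicle 6). For oxidative phosphorylation only 1 gene was called without Late Vehicle 1 and 0 after quantile normalization. Cholesterol synthesis genes, which astrocytes and oligodendrocytes express for membranes, gave 6 of 24 higher and 0 lower (median 0.32), with sums of 2043, 2165 and 2245 CPM in Early mice and 2545, 2564 and 2774 CPM in Late mice. Fdft1, which makes squalene (0.44, adjusted p = 0.00177), Sqle, which oxidises it (0.36, adjusted p = 0.012), and Insig1, which restrains the pathway (0.40, adjusted p = 0.0112), were among them. The number called was 2 with library sizes that leave out Bc1 and mitochondrial genes, 4 without Late Vehicle 1, 11 without Late Vehicle 6, 13 after centring on the median and 19 after removal of the GC and length trend.

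**Figure D4:**
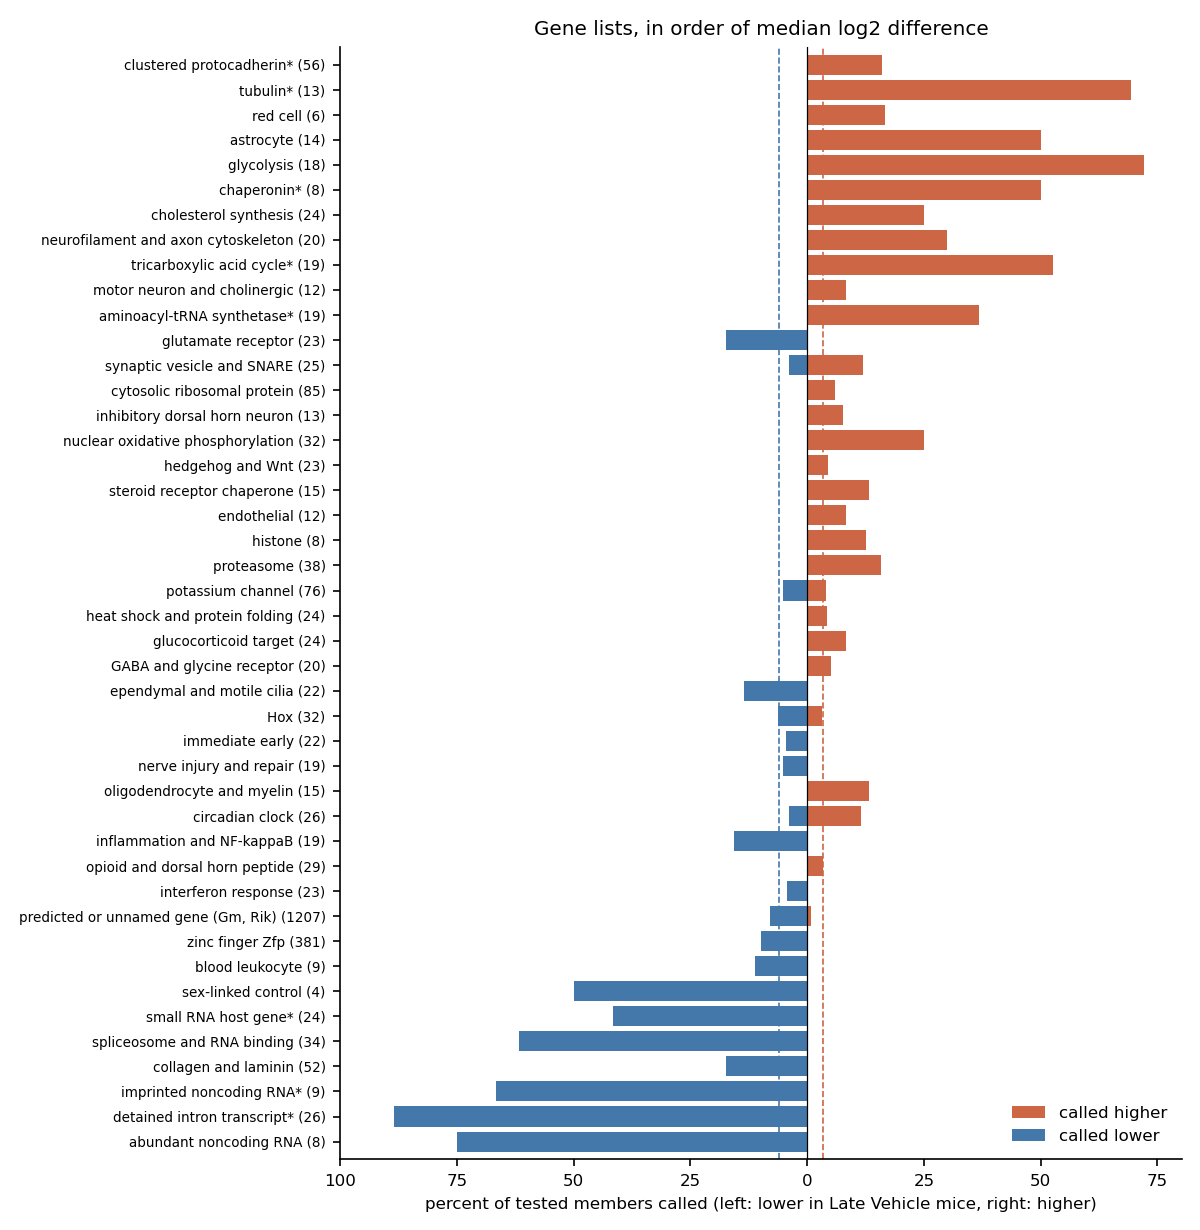
Bars show the percent of tested members of each gene list that were called higher (right) or lower (left) in Late Vehicle mice, for lists with at least 1 call, in order of their median log2 difference. Dashed lines mark the shares among all genes tested (3.46% higher and 5.99% lower), the number tested is in brackets, and an asterisk marks lists drawn up after the values were seen.

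Lists of protein synthesis, folding and the cytoskeleton held some genes called higher, though most members were not called. Cytosolic ribosomal proteins gave 5 of 85 higher (5.88%, beside 3.46% of all genes) and 0 lower (median 0.21), 29 higher without the 3 libraries of high Bc1 share and 0 without Late Vehicle 1. Rps3, of the small subunit, rose from a median of 8.51 to 8.92 without overlap (log2 0.35, adjusted p = 0.0287), a call lost in 8 of 40 other settings and left-out libraries. Proteasome genes gave 6 of 38 higher and 0 lower (median 0.15), with Psmd2 at 0.41, but 2 without Late Vehicle 1, 1 with library sizes that leave out Bc1 and mitochondrial genes, 0 after quantile normalization and 16 after removal of the GC and length trend. Of 8 chaperonin genes 4 were higher, and of 19 aminoacyl-tRNA synthetase genes 7 were, with 0 lower in either (medians 0.33 and 0.25, lists drawn up after the values were seen). Without Late Vehicle 1 these were 3 and 2, and after quantile normalization 2 and 2. With library sizes that leave out Bc1 and mitochondrial genes they were 3 and 2. The chaperones that fold steroid receptors, of which FKBP5 is a partner, gave 2 of 15 higher, Hsp90ab1 (0.32, from 10.87 to 11.18 without overlap) and Stip1 (0.31), and 0 lower (median 0.16), and their calls were lost in 11 and 13 of 40 other settings and left-out libraries. Tubulin genes, grouped after the values were seen, gave 9 of 13 higher and 0 lower (median 0.56), but 7 without Late Vehicle 1 and 2 after quantile normalization. Tuba1b rose from a median of 7.90 to 8.52, and the groups overlapped (log2 0.77, SE 0.21, adjusted p = 0.018). Neurofilament and axon cytoskeleton genes gave 6 of 20 higher and 0 lower (median 0.32), 4 of these tubulins, with the neurofilament partner Ina (0.47) and Spock1 (0.39) as the others. Quantile normalization turned that list to 0 higher and 2 lower.

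Among genes called higher with a mean of at least 1 log2 CPM, the largest folds were of clustered protocadherins, adhesion proteins that give neurons their surface identity. Pcdhgc3 stood at 2.89, 4.72 and 5.09 in Early mice and at 5.10, 5.65 and 5.89 in Late mice (log2 1.19, SE 0.28, adjusted p = 0.00801). Pcdhgb1 (1.41), Pcdhgb5 (1.24), Pcdhb8 (1.22) and Pcdhgb4 (1.14) were weakly expressed, with means between 1.79 and 2.06 log2 CPM for Pcdhgb1 and Pcdhgb4, and overlapped between the groups, and the calls of Pcdhgb5 and Pcdhgb4 were lost in 19 and 9 of 40 other settings and left-out libraries. In the whole family, grouped after the values were seen, 9 of 56 were called higher (16.1%, beside 3.46% of all genes) and 0 lower (median 0.64). Without the 3 libraries of high Bc1 share 1 was called, and the median was 0.26. The number was 4 without Late Vehicle 1, 17 after quantile normalization and 23 after removal of the GC and length trend. Members of the gamma cluster share their constant exons, and other members are near copies, so their values are not independent of each other.

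Genes that follow the time of day differed in a few members. The clock drives daily output through E-boxes, bound by CLOCK and ARNTL, and D-boxes, bound by DBP and its relatives, and PER and CRY proteins close the loop. Of 26 clock genes 3 were called higher (11.5%, beside 3.46% of all genes) and 1 lower (3.85%, beside 5.99%), with a median of -0.02. Per3, a member of the repressor limb, stood at 4.07, 4.25 and 4.95 in Early mice and at 2.66, 3.42 and 3.84 in Late mice, without overlap (log2 -1.01, SE 0.19, adjusted p = 0.0009). Dbp stood at 4.30, 4.47 and 5.17 in Early mice and at 4.58, 5.56 and 5.95 in Late mice, with overlap (log2 0.85, SE 0.21, adjusted p = 0.0114). The repressors Bhlhe41 (0.66, adjusted p = 0.0266) and Bhlhe40 (0.29, adjusted p = 0.0362) were higher but lost their calls in 7 and 14 of 40 other settings and left-out libraries. Arntl (-0.26), Clock (-0.24), Per1 (0.33), Per2 (-0.25), Cry1 (0.14) and Nr1d1 (0.46) were not called, with adjusted p between 0.099 and 0.487. The hour of tissue collection is not given in the labels, and its part was not tested.

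Promoters of 2 called clock genes are shown, the 1 lower and 1 of the 3 higher, with D-boxes (TTA, any base, GTAA, on either strand) or an E-box (CACGTG, the same on both strands) in capitals. D-boxes were in 2.32% and E-boxes in 7.15% of all 32851 promoters. Among 30 promoters, which cover 21 of the 26 clock genes tested, 2 held a D-box and 7 an E-box. The Per3 window held 2 D-boxes and no E-box, the Bhlhe41 window 1 E-box, and the Dbp window neither. Bhlhe40, also called higher, had no promoter among the 30. The 2 genes shown are thus the called ones whose window held a motif.
Per3, chr4:151044616-151044915, minus strand: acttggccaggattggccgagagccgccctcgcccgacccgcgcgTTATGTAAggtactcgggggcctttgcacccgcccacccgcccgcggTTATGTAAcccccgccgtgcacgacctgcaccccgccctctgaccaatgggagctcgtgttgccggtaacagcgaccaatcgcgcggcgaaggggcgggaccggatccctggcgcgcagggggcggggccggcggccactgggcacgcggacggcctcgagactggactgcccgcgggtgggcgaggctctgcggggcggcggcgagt
Bhlhe41, chr6:145865371-145865670, minus strand: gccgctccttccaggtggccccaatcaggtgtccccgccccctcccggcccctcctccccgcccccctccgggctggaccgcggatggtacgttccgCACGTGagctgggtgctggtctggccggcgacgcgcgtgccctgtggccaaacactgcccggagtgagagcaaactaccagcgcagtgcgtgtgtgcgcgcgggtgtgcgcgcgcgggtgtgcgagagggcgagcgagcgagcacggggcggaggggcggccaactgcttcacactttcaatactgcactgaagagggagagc

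Genes that respond to handling and stress hormone gave few calls. Of 22 immediate early genes 1 was called lower (4.55%, beside 5.99% of all genes) and 0 higher. It was Npas4, an activity-driven factor of neurons, which fell from a median of 0.91 to -0.81 (log2 -1.63, adjusted p = 0.0131) at a median of 39.5 reads in Early and 8.5 reads in Late mice. Fos (0.00), Arc (0.17) and Egr1 (0.31) were not called. Of 24 glucocorticoid targets 2 were called higher (8.33%, beside 3.46% of all genes), the metallothionein gene Mt2 (0.48, adjusted p = 0.016) and Slc2a1, and 0 lower (median 0.10). The number called was 0 after quantile normalization and 0 with library sizes that leave out Bc1 and mitochondrial genes (median -0.02). After removal of the GC and length trend it was 4 higher and 1 lower. Fkbp5, the target of SAFit2 and itself a glucocorticoid target, stood at 3.79, 4.45 and 4.63 in Early mice and at 4.28, 4.45 and 4.60 in Late mice and was not called (log2 0.09, SE 0.14, adjusted p = 0.760). Other genes that the study names were not called either: Naaa (0.06), Enkur (0.27), Shank3 (0.25), Nfkbib (0.42) and Eri1 (0.06), with adjusted p between 0.244 and 0.815.

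**Figure D5:**
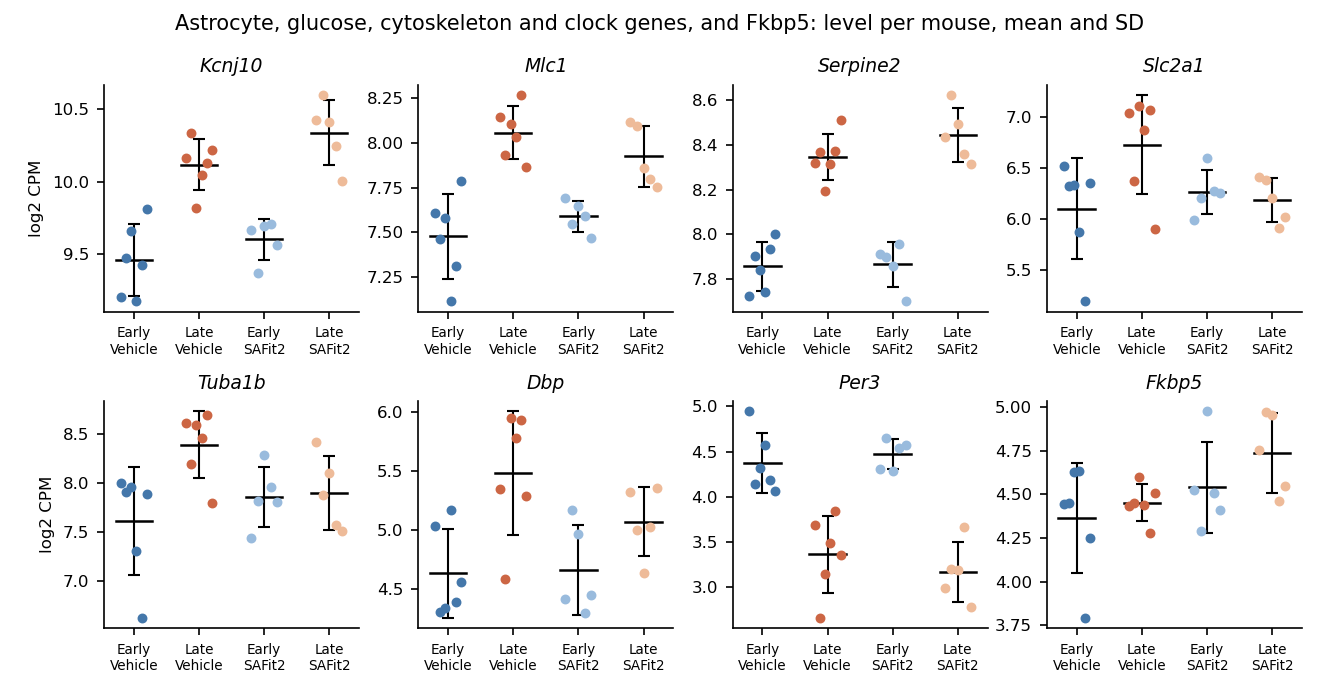
Each point is a mouse, in log2 CPM, with the group mean and SD as bars, for 8 genes in the 4 groups. Within Vehicle mice Kcnj10, Mlc1 and Serpine2 are higher and Per3 lower in every Late mouse, Slc2a1, Tuba1b and Dbp overlap, and Fkbp5 was not called.

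Receptors and channels of pain pathways gave few calls, in most lists near or below the shares of all genes tested (3.46% higher and 5.99% lower). Of 23 glutamate receptor genes 4 were called lower and 0 higher, although the median of the list was 0.24. Grin2b, an NMDA receptor subunit, had medians of 2.60 and 2.10 (log2 -0.85, adjusted p = 0.0239), Gria2, an AMPA receptor subunit, 8.11 and 7.48 (log2 -0.56, adjusted p = 0.0375), and Gria3 (-0.36) and Grik1 (-0.44) followed. Their calls were lost in 7, 13, 14 and 10 of 40 other settings and left-out libraries. The direction rested on the scaling, since centring on the median gave 1 higher and 1 lower and removal of the GC and length trend 5 higher and 1 lower. Gabbr1, a subunit of the GABA-B receptor, rose from 8.66 to 9.10 without overlap (log2 0.51, adjusted p = 0.00488), the only call among 20 GABA and glycine receptor genes (median 0.06). In this list 6 were called higher after removal of the GC and length trend and 5 with the GC slope as a covariate. The inhibitory neuron gene Slc32a1, the vesicular transporter for GABA and glycine, was called higher (0.59, adjusted p = 0.0283) but lost the call in 9 of 40 other settings and left-out libraries. Of 76 potassium channel genes 3 were higher and 4 lower (median 0.12), but 9 and 3 after removal of the GC and length trend and 7 and 5 without Late Vehicle 6. Besides Kcnj10 these include Kcnt1, a sodium-activated channel (-0.83, adjusted p = 0.00255), and Kcnj9, a G protein-gated channel (-0.55, adjusted p = 0.00786). Kcnq1ot1, a noncoding RNA, is in that list by its name only. Voltage-gated sodium and calcium channels gave 0 of 24, postsynaptic scaffolds 0 of 19 and purinergic and endocannabinoid genes 0 of 25. These zeros were not kept under all settings. After removal of the GC and length trend 5 scaffold and 4 purinergic genes were called higher, as were 4 scaffold genes without Late Vehicle 6. Of the sodium and calcium channels, 3 were called lower with the GC slope as a covariate. Of 29 opioid and dorsal horn peptide genes 1 was called, the cholecystokinin receptor gene Cckbr (0.60, adjusted p = 0.00513). Besides it, 3 were called lower without Late Vehicle 6 and 2 with library sizes that leave out Bc1 and mitochondrial genes.

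Few inflammatory genes were called. In the list of inflammation and NF-kappaB genes 3 of 19 were called lower (15.8%, beside 5.99% of all genes) and 0 higher (median -0.03). They were the kinase genes Chuk (-1.10, adjusted p = 0.00136) and Ikbkb (-0.41, adjusted p = 0.0304), which release NF-kappaB, and the interleukin-1 receptor gene Il1r1 (-0.87, adjusted p = 0.00513), from a median of 2.57 to 1.70 without overlap. The interferon response gave 1 of 23, Stat2 (-0.47, adjusted p = 0.0347, lost in 8 of 40 settings), and antigen presentation 0 of 15. Nerve injury and repair genes gave 1 of 19, Socs3 (-1.49, adjusted p = 0.0416), which lost the call in 12 of 39 other settings and left-out libraries. Blood leukocyte markers gave 1 of 9, Ptprc (-0.84, adjusted p = 0.0495, lost in 28 of 40), at sums between 11.0 and 30.9 CPM, led by Mrc1. Red cell genes gave 1 of 6 higher (16.7%, beside 3.46% of all genes), Hbb-bs (0.64, adjusted p = 0.0298, lost in 10 of 40). Their sums were 513, 533 and 674 CPM in Early and 581, 788 and 984 CPM in Late mice, led by Hba-a2. The red cell count was 3 higher after centring on the median, after removal of the GC and length trend or without Late Vehicle 6, and 1 lower with library sizes that leave out Bc1 and mitochondrial genes. The part of residual blood in these values was not tested.

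The same labels were compared in mice that the Vehicle pair does not include. For both pairs the spread of each gene was estimated over all 22 libraries, so their calls are not independent of each other. Between 5 Late and 5 Early SAFit2 mice, which also had the drug, 1564 genes (9.67%) were called higher and 1890 (11.7%) lower. Of the 968 genes lower in Late Vehicle mice, 878 (90.7%) had the same direction in SAFit2 mice and 514 (53.1%) were called lower there, which is 27.2% of the SAFit2 calls lower. Of the 559 genes higher in Late Vehicle mice, 416 (74.4%) had the same direction and 150 (26.8%) were called higher, which is 9.59% of the SAFit2 calls higher. Over all genes tested 54.7% had the same direction in both pairs. In the SAFit2 pair the median of the genes called lower in Vehicle mice was -0.60 and that of the genes called higher 0.15, against -0.87 and 0.44 in the Vehicle pair itself. Of the genes called in Vehicle mice, 1 was called in the other direction.

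The nuclear RNAs had like differences in SAFit2 mice, at -4.49 for Firre, -3.76 for Snhg11, -3.61 for Miat, -3.32 for Neat1 and -3.16 for Meg3, and each was called. Detained-intron transcripts had a median of -0.80 there, but spliceosome and RNA-binding genes -0.08, beside -0.06 for all genes in that pair. Kcnj10 (0.73), Serpine2 (0.58), Mlc1 (0.34), Per3 (-1.30) and Mt2 (0.66) were called in the same direction, as were Insig1 (0.44) and Sqle (0.41). In the SAFit2 pair the medians were 0.02 for glycolysis, 0.04 for tubulins and 0.11 for protocadherins, 0.20 for the tricarboxylic acid cycle, 0.27 for cholesterol synthesis and 0.29 for astrocyte markers. They were 0.45 for oxidative phosphorylation, 0.46 for cytosolic ribosomal proteins and 0.53 for chaperonins. Gapdh (0.11), Hk1 (0.07) and Tuba1b (0.03) were not called there, nor were Pcdhgb1 (0.50), Pcdhgb5 (-0.21), Dbp (0.41) and Gria2 (0.15). These values side by side do not show that the pairs differ. The test of the difference between them in limma gave 0 genes at an adjusted p under 0.05 (lowest 0.117). It gave 4124 of the 16169 genes at an unadjusted p under 0.05, and limma voom on reads gave 0 and 3983. The absence of calls does not show that the pairs agree. The Late SAFit2 libraries also had a higher Bc1 share (3.31% to 16.5%) and GC slopes between -0.49 and -0.05, unlike most Late Vehicle libraries. Their share of reads on mitochondrial genes was 12.7% to 14.9%, against 6.99% to 11.3% in Early SAFit2 libraries. The part of these in the values was not tested.

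Apart from the 8 lists drawn up after the values were seen, 50 gene lists were used, of which 14 had no called gene, 19 had genes called higher only, 11 lower only and 6 both. Over all genes tested 3.46% were called higher and 5.99% lower. Besides the lists given, synaptic vesicle genes gave 3 of 25 higher (12.0%) and 1 lower (4.00%), with Syn1 at 0.45, Sv2a at 0.43, Syp at 0.29 and Rab3c at -0.45. That split was 0 and 3 after quantile normalization, 11 and 0 after removal of the GC and length trend and 7 and 1 without Late Vehicle 6. Ependymal and motile cilia genes gave 3 of 22 lower (13.6%), with Ccdc39 at -0.96, Cfap65 at -1.51 and a median of 0.06. Their sums were 57.7, 80.1 and 134 CPM in Early and 50.2, 89.1 and 135 CPM in Late mice, led by Foxj1. Without Late Vehicle 1 none of the ependymal and cilia genes was called and the median was 0.32. Single genes were called higher among endothelial markers (Pecam1, 0.48, 8.33% of 12), motor neuron and cholinergic markers (Ache, 0.60, 8.33% of 12), heat shock genes (Calr, 0.47, 4.17% of 24), hedgehog and Wnt genes (Wnt7b, 0.82, 4.35% of 23) and histones (H1f2, 0.45, 12.5% of 8). The shares of heat shock and of hedgehog and Wnt genes were near the 3.46% of all genes. Pecam1, Ache and H1f2 lost their calls in 11, 15 and 12 of 40 other settings and left-out libraries, as did Sv2a, Syp and Rab3c in 11, 25 and 13. Oligodendrocyte precursor, mural, excitatory dorsal horn neuron, sensory ganglion and skeletal muscle markers gave 0 calls. Under other settings all of these but the sensory ganglion markers gave a few, the most being 1 excitatory neuron marker higher and 3 lower without Late Vehicle 6. Of 4 sex-linked genes tested 2 on the Y chromosome were called lower, Kdm5d (-0.59) and Eif2s3y (-0.90, lost in 7 of 40).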

How the data were processed

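The authors trimmed (Trimmomatic), aligned to mm10 (HISAT2) and counted (featureCounts) the reads, and corrected library sizes with the TMM factors of edgeR. The deposited values are log2 CPM. Reads were worked back from them for depth and voom (100% whole within 0.02 reads). Differences came from limma 3.58.1 (R 4.3.3), with a mean for each of the 4 groups over 22 libraries and a variance trend. A gene was called if its fold was at least 1.2 and its p, adjusted by Benjamini and Hochberg over all genes tested, was under 0.05. Library measures and single values were tested by exact two-sided permutation over all divisions of the 12 mice (Python 3.11.15, numpy 2.4.6, pandas 2.3.3, scipy 1.17.1, matplotlib 3.10.9). Gene features came from GENCODE M21, promoters from RefSeq.

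Named genes were, in each direction, the 10 of lowest p without overlap and the 5 of largest fold with a mean log2 CPM of at least 1, then up to 4 called genes of lowest p per list, genes the study names with Bc1, and the clock, immediate early and glucocorticoid lists. Malat1, Gfap, Aqp4, Slc1a2, Mbp and Ddx5 were chosen after their values were seen. The mice were chosen by label, but that choice and all gene lists were made with earlier results of these data known. All results are exploratory.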

Additional observations from a re-analysis of the deposited data

Results flagged for a closer look

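In 7 of 82 groups of values, 1 library lay far from the other 5 of its group, with a gap to its nearest neighbour that was a large share of the group's whole range. Chance alone gives this in about 1 in 20 groups. Late Vehicle 6 accounted for 3. Its Bc1 share was 7.55% with the next at 3.43% (0.662 of the range), its Tril level was 6.67 log2 CPM with the next at 6.95 (0.642), and its Pcdhgb5 level was 1.66 with the next at 2.67 (0.813). Early Vehicle 4 had a Bc1 share of 11.9% with the next at 4.28% (0.695), and Early Vehicle 5 had 18.3% of reads on mitochondrial genes with the next at 10.1% (0.740). Late Vehicle 4 had a Firre level of 1.06 with the next at 1.59 (0.735). Late Vehicle 2 had a Pcdhgb1 level of 1.81 with the next at 2.49 (0.729). The causes were not tested.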

How the results depend on the processing

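Against 1527 genes called, library quality weights gave 5058, removal of the GC and length trend 2923 (2813 with a block for replicate number), a fold of 1.5 gave 843 and an adjusted p under 0.01 gave 625. The last 2 follow from the stricter thresholds, and the cause of the others was not tested. Leaving out 1 library at a time gave 937 to 2483 genes, the lowest without Late Vehicle 1 (247 higher, 690 lower) and the highest without Late Vehicle 6 (1188 higher, 1295 lower). The other alternatives gave between 1185 (quantile normalization) and 2275 (GC slope as a covariate), with 1210 from the 12 Vehicle libraries alone. The replicate block alone gave 1448, but replicate numbers do not pair mice, as the correlations between mice of the same number lay between -0.236 and 0.323 and none had its own number as best match. The permutation p of the first component was 0.0108, and 0.00216 (the smallest possible) on the 500 genes of highest variance and with the GC and length trend removed. It was 0.167 with genes scaled to unit variance, where the second component had 0.00216 with all 6 Late libraries above all Early ones. The second component otherwise had 0.0303, and 0.991 on the 500 genes of highest variance and 0.442 with the GC and length trend removed. In the SAFit2 pair, 1294 of the 1527 had the same direction, and 2721 of 2923 with the trend removed, where more genes were called. Among 174 named genes followed, no called gene turned its direction. Of 3121 values under other settings 266 lost the call, as did 479 of 3828 values with 1 library left out. Of the 266, 71 were under quantile normalization and 49 with library sizes that leave out Bc1 and mitochondrial genes. Another 38 were with the 12 Vehicle libraries alone. Calls near the threshold and genes with few reads, such as Npas4, are limited by depth and by 6 mice a group.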
